A study of Mus musculus with 4 samples.

Results

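The 10 genes described here encode the contractile apparatus of smooth muscle: the actins Acta2 and Actg2, the actin-bound proteins Tagln, Cnn1, Tpm2, Lmod1 and Smtn, and the myosin side of the apparatus, Myh11, Myl9 and Mylk. They were chosen by name as genes of the smooth muscle cell and make up 10 of the 32948 genes in the table, and all 10 passed the filter on low counts. They were followed across 4 libraries of sorted aortic cells, taken from the ascending part and the arch in mice that carry Wnt1-Cre and Rosa26-mTmG.

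All 4 libraries carry the same alleles: the animals are Wnt1-Cre;Rosa26-mTmG. Wnt1-Cre is a recombinase driven by a promoter that is active in the neural crest, and the Rosa26-mTmG reporter makes tdTomato until Cre acts on it and GFP afterwards. GFP cells therefore have a history of Wnt1-Cre, and tdTomato cells are those without one, of whatever type. A female GFP library and a female tdTomato library came from 1 female sample, and a male GFP library and a male tdTomato library came from a pool of 2 male samples. The ages of the mice are not given in the sources used here. Each pair thus shares a suspension, and the sexes also differ in pooling and in the suspension itself, so that these cannot be told apart. The labels call all 4 libraries vascular smooth muscle cells, but the sort used fluorescence alone.

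Smooth muscle shortens when the motor protein Myh11 pulls on filaments of smooth muscle actin. A calcium signal switches on the kinase Mylk, which phosphorylates the regulatory light chain Myl9 and so lets the motor work, and a myosin phosphatase reverses that step. In the walls of large arteries the genes for these proteins are known as targets of serum response factor, a protein that binds the CArG box, together with its partner myocardin.

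The RefSeq table for GRCm38.p6 held the promoter window, from 250 bases before to 50 after the start, of 7 of the 10 genes. Myh11, Tagln and Actg2 had no window there. The windows were searched for the CArG box, CC, then 6 letters that are all A or T, then GG, a pattern that reads the same on either strand. Of the 7 genes, 1 held the box, Myl9, against 1.63% of all 32851 windows of the same length. With 1 of the 6 central letters left free, 2 of the 7 held it, Myl9 and Acta2, against 9.98% of all windows. A match describes the letters of the window and shows no binding. Boxes outside the window were not searched for, so a gene without a match may still hold one elsewhere. The 180 bases before the start of both genes are printed because Acta2 and Myl9 were the contractile genes of highest level, and capitals mark the CArG boxes, the box with 1 letter free included.
Acta2 promoter, chr19:34255374-34255553, minus strand: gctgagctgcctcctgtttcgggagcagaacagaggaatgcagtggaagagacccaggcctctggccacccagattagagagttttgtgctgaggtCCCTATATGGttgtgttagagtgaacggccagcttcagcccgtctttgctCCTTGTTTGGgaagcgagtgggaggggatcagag
Myl9 promoter, chr2:156775284-156775463, plus strand: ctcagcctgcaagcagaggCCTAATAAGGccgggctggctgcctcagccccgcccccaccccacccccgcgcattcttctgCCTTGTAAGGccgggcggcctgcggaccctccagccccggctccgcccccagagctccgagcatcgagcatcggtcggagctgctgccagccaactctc
The boxes of Acta2 begin 84 and 34 bases before the start, and both have 1 central letter that is neither A nor T. The boxes of Myl9 begin 161 and 99 bases before the start, and the first of them fits the full pattern.

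The libraries held 13678806 estimated counts for female GFP, 10094326 for male GFP, 13911281 for female tdTomato and 12837282 for male tdTomato. At least 10 counts were reached by 11942 genes in the female and 9439 in the male GFP library, against 16136 in the female and 15593 in the male tdTomato library. Levels are counts per 1000000 counts of the library (CPM) after TMM scaling, and 3 counts were worth 0.201 to 0.319 CPM. Among genes listed as markers of other cell types, 8 endothelial markers summed to 15.8 and 12.7 CPM in female and male GFP, against 385 and 237 CPM in female and male tdTomato. Cdh5 had 1 and 0 counts in female and male GFP, and Kdr none in either. Pecam1 made up most of the GFP sums, with 15.2 and 11.8 CPM in female and male GFP, against 51.0 and 41.4 CPM in female and male tdTomato. The 8 fibroblast markers measured summed to 3669 and 1632 CPM in female and male GFP, against 4236 and 4687 CPM in female and male tdTomato, with Pdgfra at 0 in the female and Dpt at 0 in the male GFP library. The single fibroblast markers went both ways: Dcn had 2134 and 153 CPM in female and male GFP, against 1920 and 2236 CPM in female and male tdTomato, while Pi16 had 10.8 and 88.4 CPM in female and male GFP, against 23.5 and 61.4 CPM in female and male tdTomato. The 6 pericyte markers summed to 600 and 2195 CPM in female and male GFP, against 861 and 634 CPM in female and male tdTomato, with Notch3 at 0 in both GFP libraries. Rgs5 made up most of the pericyte sum in male GFP, with 333 and 1690 CPM in female and male GFP, against 495 and 292 CPM in female and male tdTomato. Whether pericytes or smooth muscle cells held the transcripts of this list was not tested. The 8 macrophage markers measured summed to 6.57 CPM in female and 0.532 CPM in male GFP cells, with 6 and 5 of them at 0, against 22.1 and 149.6 CPM in the female and male tdTomato libraries. Csf1r made up most of the female GFP sum and was the higher in GFP in that pair. It had 6.41 and 0.106 CPM in female and male GFP, against 4.75 and 19.2 CPM in female and male tdTomato. The 5 Schwann cell markers summed to 127 CPM in female and 109 CPM in male GFP cells, against 8.23 and 11.7 CPM in the female and male tdTomato libraries, and the 4 melanocyte markers measured to 212 CPM in female and 133 CPM in male GFP cells, against 73.2 and 58.6 CPM in the female and male tdTomato libraries. Sox10, which defines the crest-derived lines of both, had 0 and 1 counts in female and male GFP, against 0 in both tdTomato libraries. The 7 striated muscle markers measured summed to 37.5 to 61.4 CPM, with Myh7 and Ckm at 2 counts or fewer in all 4 libraries. Tnnt2 and Actn2 made up most of that sum. Tnnt2 had 60.2 and 0.319 CPM in female and male GFP, against 29.7 and 30.9 CPM in female and male tdTomato. Actn2 had 0 and 59.3 CPM in female and male GFP, against 7.76 and 22.8 CPM in female and male tdTomato.

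Together the contractile genes took 2.00% of the counts of female GFP (exact binomial 95% interval 1.99% to 2.01%) and 1.77% of those of male GFP (1.76% to 1.78%), against 1.75% in female tdTomato (1.74% to 1.76%) and 1.71% in male tdTomato (1.70% to 1.72%). Intervals here cover counting error only, since PCR copies are not separate molecules. Ranked by CPM among all genes, Acta2 stood at place 8 in the female and 13 in the male GFP library, against 10 in the female and 18 in the male tdTomato library. Actg2 stood at place 952 in the female and 1301 in the male GFP library, against 2341 in the female and 1778 in the male tdTomato library. Both sorted populations thus held the full set, and in bulk RNA fewer cells of a type and less RNA per cell cannot be told apart.

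**Figure D1:**
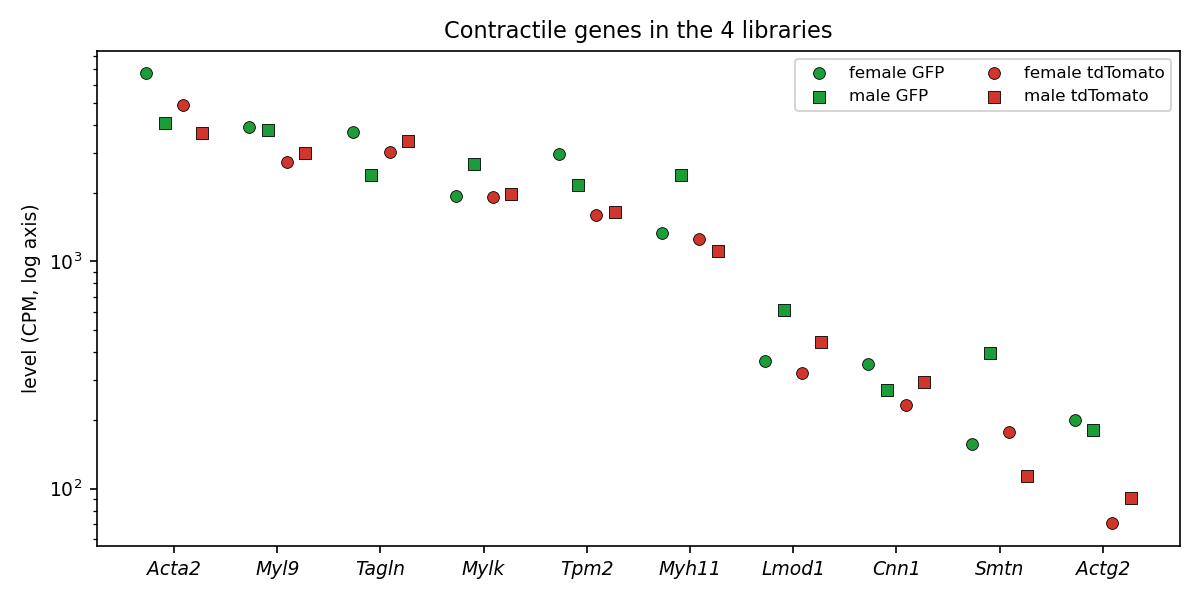
Level of each contractile gene in CPM after TMM scaling (log axis), 1 point per library, circles for the female and squares for the male suspension, green for GFP and red for tdTomato. The genes spread from 70.5 CPM (Actg2, female tdTomato) to 6738 CPM (Acta2, female GFP), and for each gene the 4 libraries lie within a much narrower band than that.

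Per kilobase of transcript, Myl9 was the highest of the 10, with a geometric mean over the 4 libraries of 2946 CPM per kilobase. Acta2 followed at 2320 and Tagln at 1943. The range of Acta2 overlapped those of Myl9 and Tagln, while Myl9 and Tagln did not overlap each other. Tpm2 was lower at 970 CPM per kilobase, with no overlap with Tagln above it or Mylk below it. Mylk averaged 271 and Myh11 226 CPM per kilobase, with overlapping ranges that lay above all others below them. Cnn1 at 120, Lmod1 at 107, Actg2 at 92.8 and Smtn at 55.5 CPM per kilobase came last, and each of these overlapped its next neighbour. Myl9 held the first place in all 4 libraries. By coding length in place of transcript length, 6 of the 10 genes held their place, and Acta2 exchanged places with Tagln and Myh11 with Cnn1.

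**Figure D2:**
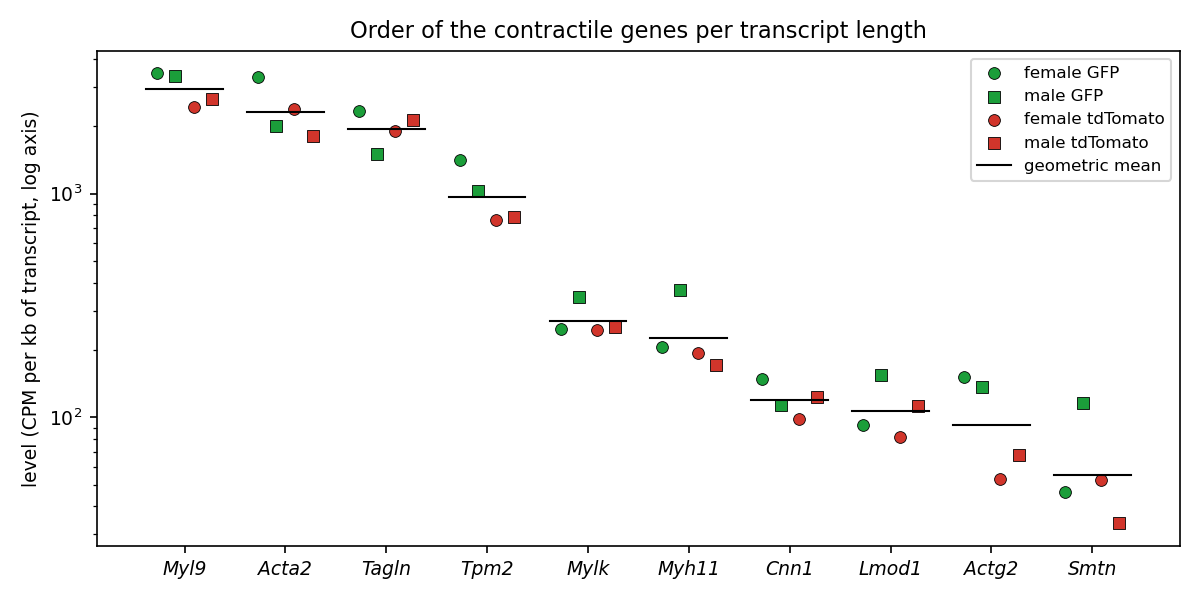
Level per kilobase of transcript (CPM per kilobase, log axis) for the contractile genes, ordered by the geometric mean of the 4 libraries (black bar). Points are single libraries. The gap between Tpm2 at 970 and Mylk at 271 CPM per kilobase parts the 4 highest genes from the other 6.

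Acta2 (ENSMUSG00000035783) encodes the actin of vascular smooth muscle. It had 6738 CPM in the female and 4083 CPM in the male GFP library, against 4889.7 CPM in the female and 3692 CPM in the male tdTomato library. The female libraries were the higher ones in both colours, and the GFP and tdTomato groups overlapped. The fold of GFP over tdTomato was 1.38 in the female suspension (95% interval 1.36 to 1.39) and 1.11 in the male one (1.09 to 1.12), and the male value turned to a log2 ratio of -0.07 by library totals without TMM.

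Actg2 (ENSMUSG00000059430) encodes the actin that prevails in visceral smooth muscle. It had 201 CPM in the female and 182 CPM in the male GFP library, against 70.5 CPM in the female and 90.9 CPM in the male tdTomato library. Both GFP libraries lay above both tdTomato libraries. Its fold of GFP over tdTomato, 2.85 in the female suspension (2.65 to 3.07) and 2.00 in the male one (1.86 to 2.15), gave the largest mean log2 ratio of the 10 genes, 1.25 ± 0.36 (SD, n = 2 pairs). Within a library, Actg2 counts stood to Acta2 counts as 0.0299 in the female and 0.0445 in the male GFP library, against 0.0144 in the female and 0.0246 in the male tdTomato library, a ratio that needs no scaling between libraries.

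Tpm2 (ENSMUSG00000028464) encodes a tropomyosin that lies along the actin filament. It had 2972 CPM in the female and 2166 CPM in the male GFP library, against 1609 CPM in the female and 1654 CPM in the male tdTomato library. The GFP libraries lay above the tdTomato libraries without overlap. The fold of GFP over tdTomato was 1.85 in the female suspension (1.82 to 1.88) and 1.31 in the male one (1.29 to 1.33), and the log2 ratios averaged 0.64 ± 0.35 (SD, n = 2 pairs).

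Tagln (ENSMUSG00000032085) and Cnn1 (ENSMUSG00000001349) encode transgelin and calponin, both of which bind actin. Tagln had 3722 CPM in the female and 2406 CPM in the male GFP library, against 3027 CPM in the female and 3405 CPM in the male tdTomato library. The male GFP library was the lowest of the 4 and the female GFP library the highest. Its fold of GFP over tdTomato was 1.23 in the female suspension (1.21 to 1.25) and 0.706 in the male one (0.695 to 0.718). Cnn1 had 353 CPM in the female and 271 CPM in the male GFP library, against 234 CPM in the female and 293 CPM in the male tdTomato library, and the groups overlapped. Its fold of GFP over tdTomato was 1.51 in the female suspension (1.44 to 1.58) and 0.922 in the male one (0.877 to 0.969), the male value turning to a log2 ratio of 0.12 with DESeq2 size factors.

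The kit does not mark strand, and in the GENCODE M21 annotation 62.4% of the exon bases of Tagln lie opposite exons of the antisense gene Gm48529. That gene had an estimated 158 counts in the female and 2.06 in the male GFP library, against 85.8 in the female and 10.1 in the male tdTomato library. These are small beside the Tagln counts of 46996 in the female and 22597 in the male GFP library, against 45268 in the female and 47337 in the male tdTomato library. How the counting shared reads of the overlap is not known, so they set no limit on antisense reads counted as Tagln. Pcsk7, also opposite, overlaps 5.43% of the Tagln exon bases. It had 6 counts in each GFP library, against 5 in the female and 140 in the male tdTomato library.

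Lmod1 (ENSMUSG00000048096) encodes leiomodin, which seeds actin filaments, and Smtn (ENSMUSG00000020439) encodes smoothelin, which marks contractile smooth muscle. Lmod1 had 364 CPM in the female and 610.4 CPM in the male GFP library, against 323 CPM in the female and 443 CPM in the male tdTomato library. The male libraries were the higher ones in both colours. Its fold of GFP over tdTomato was 1.13 in the female suspension (1.08 to 1.17) and 1.38 in the male one (1.33 to 1.43), with a female log2 ratio of -0.05 by library totals.

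Smtn had 157 CPM in the female and 394 CPM in the male GFP library, against 177 CPM in the female and 114 CPM in the male tdTomato library. The male GFP library stood above the other 3, which differed less among themselves. The fold of GFP over tdTomato was 0.885 in the female suspension (0.834 to 0.938) and 3.46 in the male one (3.26 to 3.67), and this gene had the widest spread between pairs of the 10, with log2 ratios that averaged 0.81 ± 1.39 (SD, n = 2 pairs). On the opposite strand Gm11946 overlaps 16.3% of the exon bases of Smtn; its counts were not analysed here.

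On the myosin side, Myh11 (ENSMUSG00000018830), the smooth muscle heavy chain, had 1337 CPM in the female and 2399.5 CPM in the male GFP library, against 1257 CPM in the female and 1112 CPM in the male tdTomato library. As for Smtn, the male GFP library stood above the other 3. The fold of GFP over tdTomato was 1.06 in the female suspension (1.04 to 1.09) and 2.16 in the male one (2.11 to 2.20), and the female value turned to a log2 ratio of -0.13 by library totals. Set against Acta2 in the same library, Myh11 counts stood at 0.198 in the female and 0.588 in the male GFP library, against 0.257 in the female and 0.301 in the male tdTomato library.

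Myl9 (ENSMUSG00000067818), the regulatory light chain, had 3897 CPM in the female and 3807 CPM in the male GFP library, against 2749.6 CPM in the female and 2988 CPM in the male tdTomato library. The GFP libraries lay close together and above both tdTomato libraries. The fold of GFP over tdTomato was 1.42 in the female suspension (1.40 to 1.44) and 1.27 in the male one (1.26 to 1.29), and its mean log2 ratio of 0.43 ± 0.11 (SD, n = 2 pairs) had the smallest spread between pairs of the 10 genes.

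Mylk (ENSMUSG00000022836), the kinase that acts on Myl9, had 1948 CPM in the female and 2695 CPM in the male GFP library, against 1927 CPM in the female and 1985 CPM in the male tdTomato library. The male GFP library was the highest, and the other 3 differed little. The fold of GFP over tdTomato was 1.01 in the female suspension (0.994 to 1.03) and 1.36 in the male one (1.34 to 1.38), with a female log2 ratio of -0.21 by library totals. The gene also gives rise to telokin, a short protein from its far end, which counts per gene do not separate.

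No contractile gene passed the test for sort colour. In edgeR's quasi-likelihood test, adjusted by Benjamini-Hochberg over 15055 genes, the adjusted p was 0.801 for Tpm2, 0.915 for Myl9 and 1 for the other 8 genes. That test called 0% of all genes, and its p-values rest on the spread between only 2 suspensions, of different sex. Without adjustment, 0 of the 10 contractile genes and 1298 of all genes had a p under 0.05. DESeq2 on the same design called 0 of the 10, against 7.69% of all genes and 0.733% of the tested genes averaging 50 CPM or more, as all 10 do, and limma-voom called none of either. A p that misses the threshold does not show that the populations had equal levels.

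The sizes of the ratios can be read without a test. In the female pair 9 of the 10 had a higher CPM in GFP, all but Smtn, against 44.1% of all genes tested. In the male pair 8 of the 10 did, all but Tagln and Cnn1, against 36.8%. For tested genes averaging 50 CPM or more the shares were 57.1% in the female and 55.5% in the male pair. GFP was higher in both pairs for 7 of the 10, Acta2, Actg2, Tpm2, Lmod1, Myh11, Myl9 and Mylk, against 17.3% of all genes. It was lower in both for 0, against 36.5% of all genes and 17.6% of genes averaging 50 CPM or more. The number higher in both depended on the scaling between libraries: it was 8 of 10 with DESeq2 size factors, against 19.7% of all genes, and 3 of 10 by library totals, against 13.3%. Actg2, Tpm2 and Myl9 were higher in GFP in both pairs under all 3 scalings, Tagln and Smtn went opposite ways in the pairs under all 3, and the other 5 turned in 1 pair. In these 3 scalings the median log2 ratio of all genes tested moved between -0.48 and -0.15 in the female pair and between -1.20 and -0.78 in the male pair.

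With TMM the median log2 ratio of the 10 genes was 0.38 in the female suspension and 0.42 in the male one, against -0.27 and -0.998 for all genes tested. Relative to that median, which takes the scaling out, all 10 genes had a positive log2 difference in both pairs, from 0.09 for Smtn to 1.78 for Actg2 in the female pair and from 0.50 for Tagln to 2.79 for Smtn in the male pair. Abundant genes as a whole lay nearer to the contractile genes. The 3412 tested genes averaging 50 CPM or more had medians of 0.19 in the female and 0.24 in the male pair. For 30.2% of them each pair had the higher level in GFP. Relative to these medians, only Actg2, Tpm2 and Myl9 kept a positive difference in each pair. Myh11, Smtn, Lmod1 and Mylk lay below the female median, and Acta2, Tagln and Cnn1 below the male one. The positive sign of all 10 genes thus depended on which genes gave the median.

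**Figure D3:**
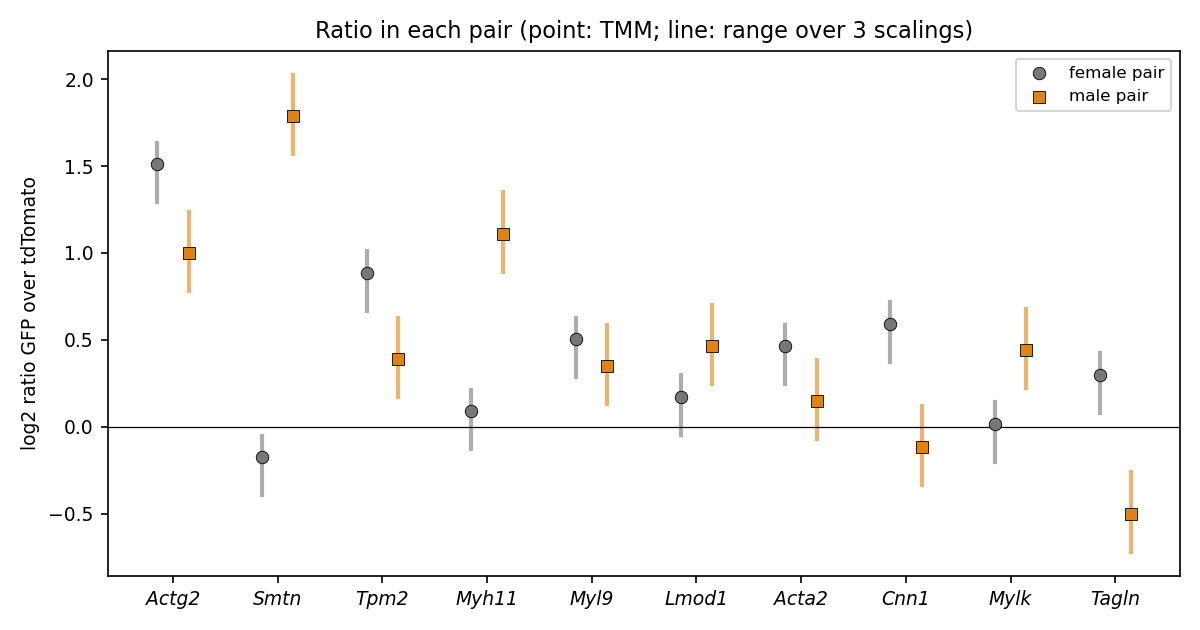
Log2 ratio of GFP over tdTomato for each contractile gene, grey circles for the female pair and orange squares for the male pair, with TMM scaling. Lines span the values under TMM, DESeq2 size factors and library totals: Actg2, Tpm2 and Myl9 stay above 0 in both pairs, Tagln and Smtn lie on opposite sides of 0, and in the other 5 genes 1 line reaches across 0.

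Most ratios of the contractile genes were small. Their median absolute log2 ratio was 0.38 in the female suspension and 0.45 in the male one, against 1.36 and 2.22 for all genes tested and 0.75 and 1.35 for genes averaging 50 CPM or more. At least 2-fold apart were 1 of 10 in the female pair, Actg2, against 59.8% of all genes, and 2 of 10 in the male pair, Myh11 and Smtn, against 71.5%. Among genes averaging 50 CPM or more these shares were 38.2% in the female and 60.8% in the male pair. In both pairs, 0 of 10 were at least 2-fold higher in GFP, against 5.17% of all genes and 7.68% of genes averaging 50 CPM or more. At least 2-fold lower in both pairs were 0 of 10, against 22.9% and 4.04%. Actg2 came closest to being 2-fold higher in both, with its male fold printed as 2.00 lying just under that line. Both GFP libraries lay below both tdTomato libraries for 0 of the 10, against 29.3% of all genes and 11.7% of genes averaging 50 CPM or more. They lay above both for 4 of the 10, Actg2, Tpm2, Myh11 and Myl9, against 11.5% and 22.9%. By library totals 3 of the 4 remained, without Myh11, against 8.74% of all genes. With DESeq2 size factors Cnn1 and Mylk made the number 6, against 13.9% of all genes.

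**Figure D4:**
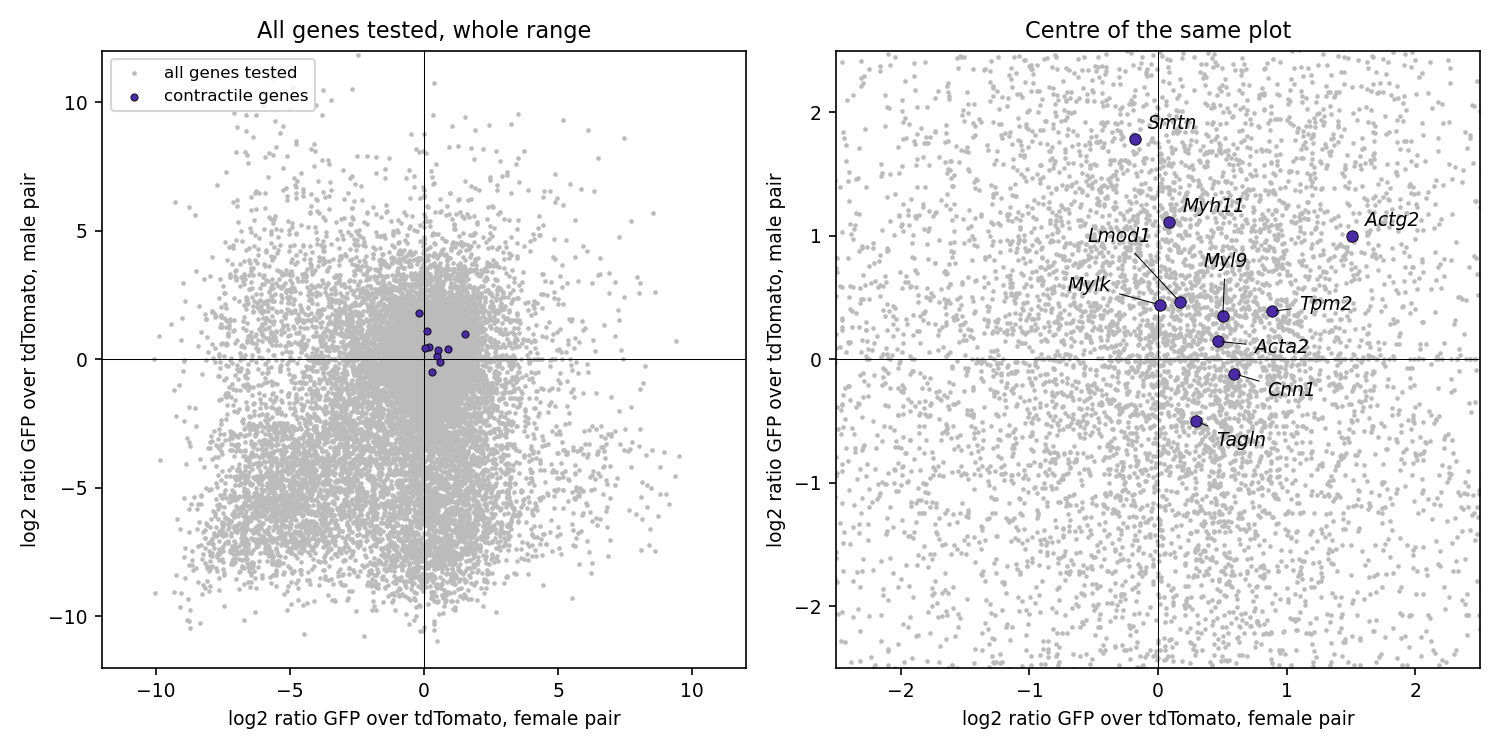
Log2 ratio of GFP over tdTomato in the female pair (x) and in the male pair (y), with TMM scaling, for all 15055 genes tested (grey) and the 10 contractile genes (blue), over the whole range at left and around the origin at right. The contractile genes sit near the origin of a wide cloud, 7 of them at positive values on both axes, a number that is 8 with DESeq2 size factors and 3 by library totals.

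The female libraries were next set against the male ones within each colour. Acta2 was the 1 gene of the 10 for which both female libraries lay above both male libraries, against 18.9% of all genes. Its female over male log2 ratio was 0.72 in GFP and 0.41 in tdTomato, with a p of 0.0541 and an adjusted p of 1 in edgeR's quasi-likelihood test. Lmod1 and Mylk were the 2 with both female libraries below both male libraries, against 13.7%, and with DESeq2 size factors Lmod1 alone. For Lmod1 the female over male log2 ratio was -0.75 in GFP and -0.46 in tdTomato, and for Mylk it was -0.47 in GFP and -0.04 in tdTomato.

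At least 2-fold apart between the sexes was 1 of the 10 in GFP, Smtn at a log2 ratio of -1.33, against 68.3% of all genes. In tdTomato it was 0 of the 10, against 42.2%. Among genes averaging 50 CPM or more the shares were 65.3% in GFP and 20.7% in tdTomato. In tdTomato the female over male log2 ratio of Smtn had the other sign, 0.64. Myh11 likewise had -0.84 in GFP and 0.18 in tdTomato. Tagln, at 0.63 in GFP and -0.17 in tdTomato, and Cnn1, at 0.39 in GFP and -0.33 in tdTomato, went the other way round. Tpm2 had 0.46 in GFP and -0.04 in tdTomato, Actg2 0.15 in GFP and -0.37 in tdTomato, and Myl9 0.03 in GFP, which turned to -0.08 with DESeq2 size factors, and -0.12 in tdTomato. These are female over male log2 ratios of 1 library each.

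In edgeR's quasi-likelihood test between the sexes, with Benjamini-Hochberg adjustment, 0 of the 10 passed, against 0% of all genes. At an unadjusted p under 0.05 there were 0 of the 10 and 262 of all genes. DESeq2 called 0 of the 10, against 0.93% of all genes, and limma-voom called none. The median absolute female over male log2 ratio of the 10 genes was 0.55 in GFP and 0.25 in tdTomato, against 1.90 and 0.81 for all genes tested. For genes averaging 50 CPM or more it was 1.55 in GFP and 0.46 in tdTomato.

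Each contractile protein has relatives, and its share of the family is measured within a library, free of scaling between libraries. Which cells held the relatives was not tested, so a share does not part smooth muscle from other cells. Shares were taken after dividing counts by transcript length. The 95% counting interval of a share reached at most 0.571 points either side in 7 families, 1.27 points in the calponins and 1.96 points in the smoothelins. Acta2 and Actg2 together made up 55.7% of the 4 actins measured in the female and 67.6% in the male GFP library, against 55.9% in the female and 51.6% in the male tdTomato library; Acta1 and Actc1 were not analysed here. Actg2 alone took 2.43% in the female and 4.30% in the male GFP library, against 1.20% in the female and 1.87% in the male tdTomato library. The rest was the cytoplasmic actins. Of these, Actb had 3619 CPM in the female and 1503 CPM in the male GFP library, against 2922 CPM in the female and 2693 CPM in the male tdTomato library.

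Of the 9 families, the calponins had the largest difference between the mean shares of the 2 colours, and were singled out after all shares were seen. Cnn1 took 41.9% of it in the female and 41.1% in the male GFP library, against 31.3% in the female and 29.3% in the male tdTomato library. The GFP mean was 41.5% ± 0.577 and the tdTomato mean 30.3% ± 1.38 (SD, n = 2 each). A family chosen in this way allows no test of its difference. In female GFP the other calponins were Cnn2 at 196 CPM and Cnn3 at 258 CPM, and in male GFP 22.5 and 315 CPM, against 142 and 324 CPM in the female and 108 and 518 CPM in the male tdTomato library. Cnn3, found in many cell types, was thus lower in GFP in both pairs, and Cnn2 in the male pair alone.

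Myh11 took 77.6% of the 4 myosin heavy chains in the female and 82.2% in the male GFP library, against 74.4% in the female and 78.3% in the male tdTomato library. Tagln took 94.8% of the transgelins in the female and 98.8% in the male GFP library, against 92.8% in the female and 94.7% in the male tdTomato library. For both, the share was higher in GFP within each pair, although the Tagln level itself was lower in GFP in the male pair. The relatives did not move together in male GFP. Myh9, a non-muscle heavy chain, had 27.04 CPM there against 97.5 to 116 CPM in the other 3 libraries, and Tagln2 had 29.4 CPM against 188 to 227 CPM. Myh10, the more abundant non-muscle heavy chain, was instead highest in male GFP, at 597 CPM against 263 to 422 CPM in the other 3 libraries.

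Myl9 took 92.0% of the regulatory light chains in the female and 93.8% in the male GFP library, against 94.96% in the female and 96.4% in the male tdTomato library. Its share was lower in GFP in each pair while its level was higher. Its relative Myl12a had 543 CPM in the female and 432 CPM in the male GFP library, against 184 CPM in the female and 106 CPM in the male tdTomato library, whereas Myl12b had 44.8 CPM in the female and none in the male GFP library, against 73.8 CPM in the female and 92.3 CPM in the male tdTomato library. Tpm2 took 69.8% of the tropomyosins in the female and 51.2% in the male GFP library, against 53.6% in the female and 56.7% in the male tdTomato library, so that the pairs went opposite ways. The tropomyosins Tpm1, Tpm3 and Tpm4 were all highest in male GFP, at 1234, 387 and 338 CPM. Mylk took 81.9% of the light chain kinases in the female and 73.9% in the male GFP library, against 79.8% in the female and 75.2% in the male tdTomato library, the rest being mostly Mylk4, which was highest in male GFP at 679 CPM, against 306 to 442 CPM in the other 3 libraries. Smtn took 99.3% of its family in the female and 99.8% in the male GFP library, against 99.5% in the female and 80.9% in the male tdTomato library, where Smtnl2 had 20.9 CPM. Lmod1 took 97.0% or more of the leiomodins measured in every library.

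**Figure D5:**
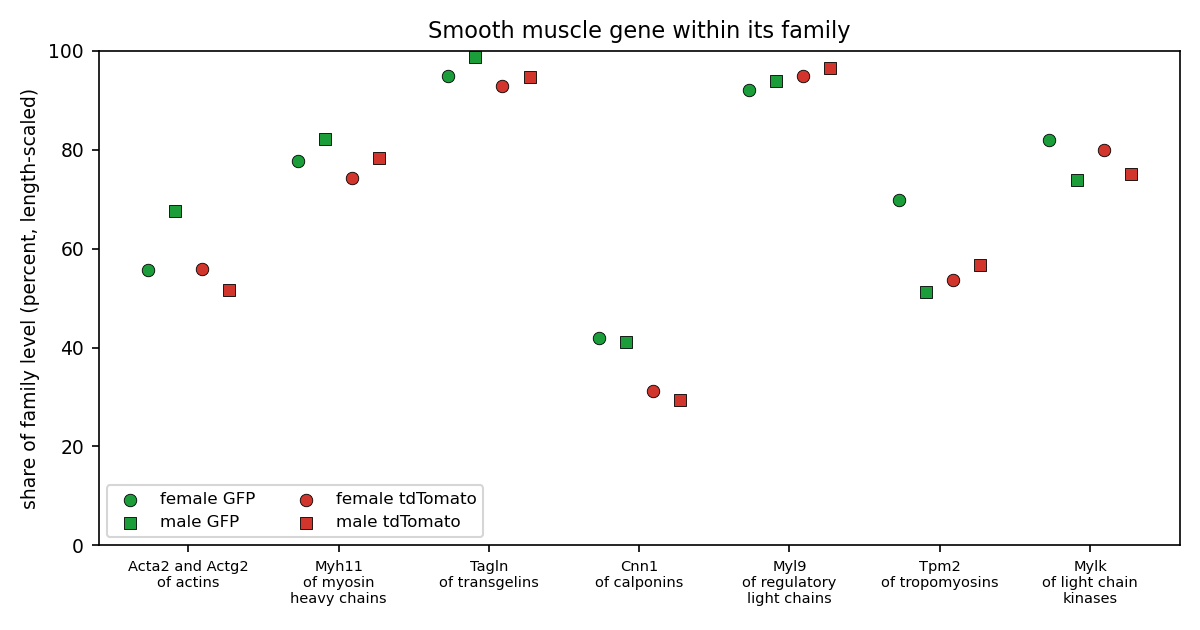
Share of a protein family's length-scaled counts taken by the contractile gene named, in percent, 1 point per library (green GFP, red tdTomato, circles female, squares male). The Cnn1 share lies at 41.1% and 41.9% in GFP and at 29.3% and 31.3% in tdTomato, and the joint share of Acta2 and Actg2 is highest in male GFP, at 67.6%.

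The rest of the apparatus was followed in lists chosen by function. Of 16 relatives of the contractile genes that were tested, 2 had the higher level in GFP in both pairs (3 with DESeq2 size factors) and 5 the lower, against 17.3% and 36.5% of all genes, with median log2 ratios of -0.12 in the female suspension and -0.78 in the male one. Of 7 other filament proteins, 2 had the lower level in GFP in both pairs (1 with DESeq2 size factors) and 1 the higher, Myl6, the essential light chain that sits beside Myl9 on the motor. Myl6 had 9981 CPM in the female and 6610 CPM in the male GFP library, against 7196 CPM in the female and 5532 CPM in the male tdTomato library. In the same list Des, the muscle intermediate filament, had 4.67 CPM in the female and 5.96 CPM in the male GFP library, against 19.5 CPM in the female and 21.8 CPM in the male tdTomato library.

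Of 12 genes that control the phosphorylation of Myl9, 9 had the higher level in GFP in both pairs, a number that was 5 by library totals, and 2 the lower, against the same 17.3% and 36.5% of all genes. Their median log2 ratio was 0.32 in the female suspension and 0.55 in the male one. Rock1, a kinase that restrains the myosin phosphatase, had 1840 CPM in the female and 4225 CPM in the male GFP library, against 1757 CPM in the female and 1605 CPM in the male tdTomato library, with a female log2 ratio of -0.15 by library totals. Rhoa, the small GTPase that activates Rock1, had 7.36 CPM in the female and 4.05 CPM in the male GFP library, against 60.1 CPM in the female and 27.3 CPM in the male tdTomato library. Calm3, a calcium sensor gene, had 31.4 CPM in female GFP and 0.319 CPM, or 3 counts, in male GFP, against 40.4 CPM in the female and 26.6 CPM in the male tdTomato library. edgeR's quasi-likelihood test called 0 genes of the 3 lists. DESeq2 called 2 of the 16 relatives, against 7.69% of all genes, and none of the other lists. Both were lower in GFP: Mylk2, a skeletal muscle kinase, with 0 and 1 counts in female and male GFP against 113 and 183 counts in female and male tdTomato, and Lmod3, a striated muscle leiomodin, with 0 counts in both GFP libraries against 51 and 107 counts in female and male tdTomato.

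The male GFP library, which stood apart for Smtn and Myh11, also had the fewest genes with 10 counts, the lowest fibroblast marker sum and the highest pericyte marker sum. The part of these in the results was not tested. Without it only the female pair compares the colours, and there the log2 ratio was 0.09 for Myh11 and -0.18 for Smtn. Endothelial and macrophage marker sums were the lower in GFP within each pair, and Schwann cell and melanocyte marker sums the higher. Their part in the levels of the contractile genes was not tested either.

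Myl9 was the contractile gene closest to the median pattern of the 10 over the 4 libraries, with a root mean square difference of 0.056 on the centred log2 scale, and Smtn the farthest, at 0.54. Among 1797 other genes of at least 100 CPM on average, the 5 closest to that pattern were Pdlim1, Slc38a2, Itgb1, Nisch and Aldoa, at 0.032 to 0.082. All contractile genes but Myl9 lay farther from it than these 5, at 0.19 (Tpm2) or more, so most members did not follow the median pattern closely. Slc38a2, the most abundant of the 5, had 2572 CPM in the female and 2723 CPM in the male GFP library, against 1785 CPM in the female and 1970 CPM in the male tdTomato library. Pdlim1, a protein of actin stress fibres, had 202 CPM in the female and 216 CPM in the male GFP library, against 147 CPM in the female and 145 CPM in the male tdTomato library. Itgb1, an integrin chain that ties cells to the matrix, had 649.9 CPM in the female and 597 CPM in the male GFP library, against 466 CPM in the female and 463 CPM in the male tdTomato library. This likeness rests on 4 libraries and describes them only.

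Reads that genes share could shift a level. Of stretches of 150 bases in the transcripts, none of Acta2, Actg2, Myh11, Myl9, Tpm2, Cnn1 or Lmod1 occurred in a transcript of another gene. Such stretches made up 22.9% of Tagln, 5.38% of Smtn and 0.651% of Mylk, all in genes on the opposite strand.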

How the data were processed

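The authors deposited expected counts: estimated reads per gene, with decimals, unscaled between libraries. RNA with a poly(A) tail was amplified with SMART-Seq v4, per the labels' protocols, a kit that does not mark strand. The tools were fastp, HISAT2 and StringTie, with the build GRCm39, per the submitters' processing notes, which give no versions. The counting program and annotation are not given in the sources used here. Between 59.4% and 69.1% of the values were whole (tolerance 1e-06), and counts were rounded before testing. Symbols matched 76.4% of identifiers, from GENCODE M21 (GRCm38), which was used for names, lengths and overlaps alone.

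Genes were kept by edgeR's filterByExpr with a minimum of 10 counts. TMM scaling gave factors of 0.923 and 0.931 for female and male GFP, against 1.07 and 1.08 for female and male tdTomato. Log2 ratios had a prior count of 2, and folds of single genes an exact 95% binomial interval. The test was edgeR's quasi-likelihood test (edgeR 4.0.16, R 4.3.3) with Benjamini-Hochberg adjustment at 0.05 and 1 residual degree of freedom, and a common dispersion of 1.47. The suspension was a block because both colours of a pair came from it. The same design was also fitted with limma-voom (limma 3.58.1) and with DESeq2 1.42.0. The difference between the pairs was not tested, since each combination of sex and colour has 1 library. The fit was tested on simulated data.

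The members and lists were chosen with earlier results of these data known. All 10 members were named. Of each other list, called genes, the 2 of highest mean CPM and the 2 of largest mean log2 ratio were eligible, and relatives were named beside family shares. Members of lists without a matched symbol were not analysed here, and 1 gene that the rule named is not reported here. Depth per library stands in the results, and alternatives in scaling, filter, prior count, length, tool and libraries were run.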

Additional observations from a re-analysis of the deposited data

Results flagged for a closer look

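For 3 contractile genes the log2 ratio of GFP over tdTomato had opposite signs between the 2 pairs. The female value minus the male value was 0.7992 for Tagln, 0.7114 for Cnn1 and -1.964 for Smtn. Tagln had 0.30 for the female and -0.50 for the male pair, Cnn1 had 0.59 for the female and -0.12 for the male pair, and Smtn had -0.18 for the female and 1.79 for the male pair. With 1 library for each sex and colour, none of these differences was tested. The male value of Cnn1 turned positive, 0.12, with DESeq2 size factors, while the signs of Tagln and Smtn were the same with TMM, DESeq2 size factors and library totals.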

How the results depend on the processing

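Of all genes tested, DESeq2 called 1157 for sort colour and 140 for sex, and edgeR without a filter on low counts called 2 for sex; the cause was not tested. Of the contractile genes, 0 were called for colour or sex under any filter, scaling or tool run, or without the replicate block, which changed no call. Leaving out each library in turn also gave 0; those fits had no block, since 3 libraries with one leave no residual degree of freedom. The number of contractile genes higher in GFP in both pairs was 7 with TMM and 3 by library totals, which by construction move every ratio of a pair together. The median log2 ratio of the 10, taken over their mean ratios, was 0.37 with TMM, 0.5538 with DESeq2 size factors, 0.153 by library totals and 0.4153 in the male pair alone. The mean log2 ratio of Lmod1 was 0.0989 by library totals, and that of Myl9 was 0.608 with DESeq2 size factors and 0.2071 by library totals. Counts not divided by length gave mean shares of 83.2% for Mylk, against 77.7% per length, and 90.47% for Myl9, against 94.29%. The lowest count of a contractile gene in a library was 1054, and the tests had 1 residual degree of freedom.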
